A study of Homo sapiens with 4 samples.

Results

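The genes described here are 10 basal and mesenchymal identity genes, namely ZEB1, ZEB2, SNAI2, VIM, CAV1, CAV2, OXTR, TP63, KRT5 and KRT14. Their members in the data are the H3K4me3 peaks that the annotated peak table names for 1 of these genes and places no more than 5 kb from a transcription start site (TSS), and 14 of the 110018 consensus peaks met this rule. Those 14 peaks belong to 8 of the 10 genes. By the rule no peak was found for KRT5, and the 2 peaks named for KRT14 lay 7269 bp downstream and 5912 bp upstream of its TSS, so that these basal keratins could not be compared here.

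Trimethylation of histone H3 at lysine 4 (H3K4me3) marks the promoters of active and poised genes, and the KDM5 demethylases remove it. ZEB1, ZEB2 and SNAI2 are zinc finger repressors that bind E-box sequences in the promoters of epithelial genes and drive epithelial-mesenchymal transition. TP63 encodes the p63 factor of basal epithelial cells, KRT5 and KRT14 encode the keratins of the same layer, VIM encodes the intermediate filament vimentin of mesenchymal cells, CAV1 and CAV2 encode the caveolins that coat caveolae, and OXTR encodes the oxytocin receptor, which contractile myoepithelial cells use in milk ejection. Luminal breast cancer cells are epithelial and are known for keeping this group of genes low.

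H3K4me3 was profiled by CUT&Tag, in which an antibody brings the Tn5 transposase to the mark so that neighbouring DNA is cut and sequenced. The cells were HCC1428, an established luminal breast adenocarcinoma line labelled WT. Of the 4 libraries, 2 came from cells given 2.5 µM C48, a KDM5 inhibitor, and 2 from cells given the vehicle DMSO, and all were collected on day 5 with fly nuclei added as a spike-in. The labels call the libraries biological replicates without saying whether they came from separate cultures, so the p-values reflect no more than how far these libraries vary, which may be technical variation, and the data describe 1 cell line.

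The C48 libraries held 58.4 and 72.7 M aligned tags (the reads HOMER counts) and the DMSO libraries 88.4 and 64.6 M, with 64.0% to 66.3% of tags in consensus peaks. Values below are tags per 10 M aligned tags after TMM scaling, termed scaled tags. TMM takes most regions as unchanged, and relative to it the median log2 fold change (C48 over DMSO, on the log2(value + 1) scale) of the 15602 genes tested was -0.38. It was 0.018 with the values as deposited per 10 M tags, 0.44 when libraries were scaled on 67 ribosomal protein promoter peaks and -0.51 with DESeq2 size factors. Spike-in counts were not used here, so a genome-wide shift of the mark is invisible in these values. Each member is therefore also given relative to the median of all genes, a difference that hardly moves with the scaling. The study reported fewer fly reads in its C48 libraries and a global rise of the mark. It stated that peaks are undercounted after C48 without spike-in scaling. Falls below are thus relative to TMM unless another scaling is named. In bulk samples, fewer cells with the mark and less of the mark per cell cannot be told apart. Of 19 luminal markers listed, 16 had enough signal to be tested. With TMM 3 of these were higher and 13 lower in C48 cells, where 18.9% of all genes were higher and 64% lower. TFF3, which rose, had 128 and 134 scaled tags in C48 cells and 22.2 and 18.2 in DMSO cells. GATA3, a luminal transcription factor, had 735 scaled tags per kb of peak in C48 cells and 1325 in DMSO cells, and KRT8, a luminal keratin, had 196 in C48 cells and 417 in DMSO cells.

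The promoter sequences of ZEB1, OXTR and TP63 are shown because ZEB1 had the largest fall and TP63 and OXTR the largest gains of the 8 genes with TMM. Each is the 250 bases before a start site, written 5′ to 3′ on the coding strand, with capitals for CACCTG or its reverse complement CAGGTG, the E-box that ZEB and SNAI factors bind. The first 3 are from RefSeq on GRCh38.p14 and lie before the outermost RefSeq start of the gene. They are ZEB1 at chr10:31318167-31318416 (plus strand), OXTR at chr3:8769614-8769863 (minus strand) and TP63 at chr3:189631139-189631388 (plus strand). The fourth, from hg38, is at chr3:189789409-189789658 (plus strand) before the internal TP63 start, from which the shorter ΔN form of p63 is made.
ZEB1: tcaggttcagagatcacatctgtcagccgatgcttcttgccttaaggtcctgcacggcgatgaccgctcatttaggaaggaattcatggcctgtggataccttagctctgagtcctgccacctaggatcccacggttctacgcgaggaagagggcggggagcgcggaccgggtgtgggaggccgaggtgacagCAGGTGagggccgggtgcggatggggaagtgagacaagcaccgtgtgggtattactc
OXTR: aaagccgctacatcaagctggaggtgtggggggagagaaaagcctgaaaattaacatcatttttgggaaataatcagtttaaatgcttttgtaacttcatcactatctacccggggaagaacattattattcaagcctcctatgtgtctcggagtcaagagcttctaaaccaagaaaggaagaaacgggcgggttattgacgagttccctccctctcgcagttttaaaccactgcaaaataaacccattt
TP63 outer start: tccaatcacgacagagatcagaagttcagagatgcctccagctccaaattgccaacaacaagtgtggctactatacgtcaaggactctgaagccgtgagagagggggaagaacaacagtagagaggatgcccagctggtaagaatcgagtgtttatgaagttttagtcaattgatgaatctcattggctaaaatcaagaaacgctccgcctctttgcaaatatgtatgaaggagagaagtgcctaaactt
TP63 internal start: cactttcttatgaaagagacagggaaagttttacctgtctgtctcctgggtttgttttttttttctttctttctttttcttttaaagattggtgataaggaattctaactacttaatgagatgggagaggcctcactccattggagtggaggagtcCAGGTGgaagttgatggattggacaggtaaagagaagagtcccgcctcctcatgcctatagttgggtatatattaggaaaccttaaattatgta

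The sequences differ in CpG content, which was not tested against the change of the mark. Windows taken in the same way for other members held 12 CpG dinucleotides for ZEB2, 8 for VIM, 18 for CAV1 and 35 for CAV2. The ZEB1 window holds 15 CpG dinucleotides and 59.2% G and C, against a median of 11 and 58% over 35116 RefSeq promoter windows of the same length. The OXTR window holds 7 CpG and 42%, the outer TP63 window 6 and 44%, and the internal TP63 window 1 and 39.2%. An E-box CACCTG or CAGGTG was found in the ZEB1 window and in the internal TP63 window and not in the OXTR or outer TP63 window. Of all RefSeq windows 17.5% held it, with both strands searched. The ZEB1 window shares 29 bases with a ZEB1 peak and the OXTR window 71 with an OXTR peak, while the internal TP63 window ends 977 bases before the nearest TP63 peak.

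With TMM scaling, ZEB2, SNAI2, VIM, OXTR and TP63 rose within 5 kb of the TSS in C48 cells relative to DMSO cells. ZEB1, CAV1 and CAV2 fell. Thus 5 of the 8 genes with peaks were called higher and 3 lower (limma-trend, Benjamini-Hochberg adjusted p under 0.05 over all genes). Over all genes tested, 18.9% were called higher and 64% lower. The median log2 fold change of the 8 genes was 0.47, against -0.38 for all genes. Libraries of C48 and DMSO cells did not overlap in any of the 8 genes, which was also true of 90.5% of all genes tested, so a lack of overlap does not set the members apart.

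**Figure D1:**
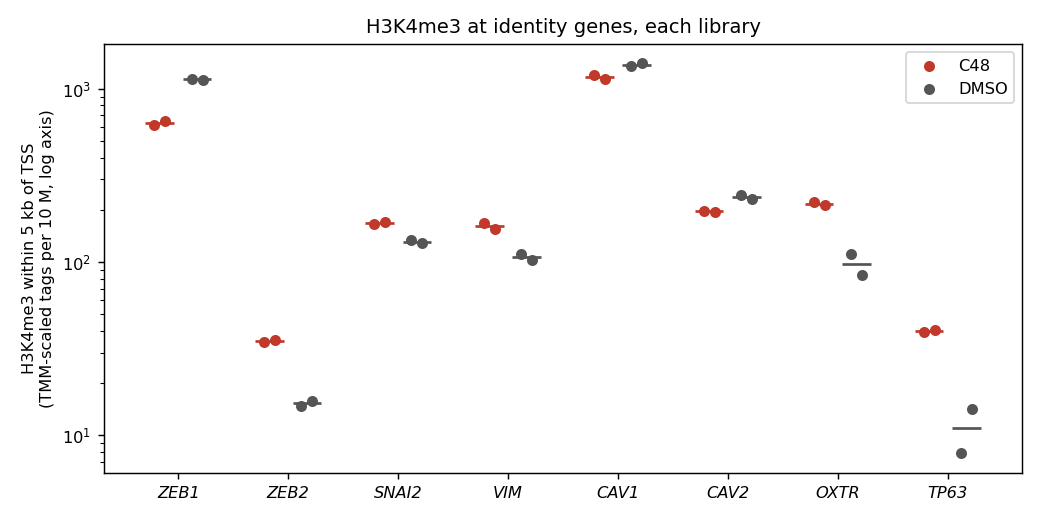
H3K4me3 summed over the peaks within 5 kb of each identity gene (TMM-scaled tags per 10 M, log axis), with 1 point per library and a line at the mean of the 2 C48 (red, left) or 2 DMSO (grey, right) libraries. The groups do not overlap for any of the 8 genes, and TP63 and OXTR show the widest gap between their DMSO libraries, at 7.87 and 14.1 for TP63.

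The scaling decides the direction of both caveolins. As deposited, per 10 M tags, 6 of the 8 genes were called higher and 1 lower, against 39.5% of all genes higher and 37.2% lower. On ribosomal protein promoters 7 were higher and none lower, where 76.3% of all genes were higher and 5.64% lower. ZEB2, SNAI2, VIM, OXTR and TP63 were called higher under all 4 scalings. Relative to the median of all genes, the TMM differences on the log2 scale were 2.21 for TP63, 1.54 for OXTR, 1.52 for ZEB2, 0.97 for VIM, 0.74 for SNAI2, 0.14 for CAV1, 0.11 for CAV2 and -0.46 for ZEB1. Thus 7 of the 8 genes lay above that median and ZEB1 alone lay below it, under each of the 4 scalings.

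**Figure D2:**
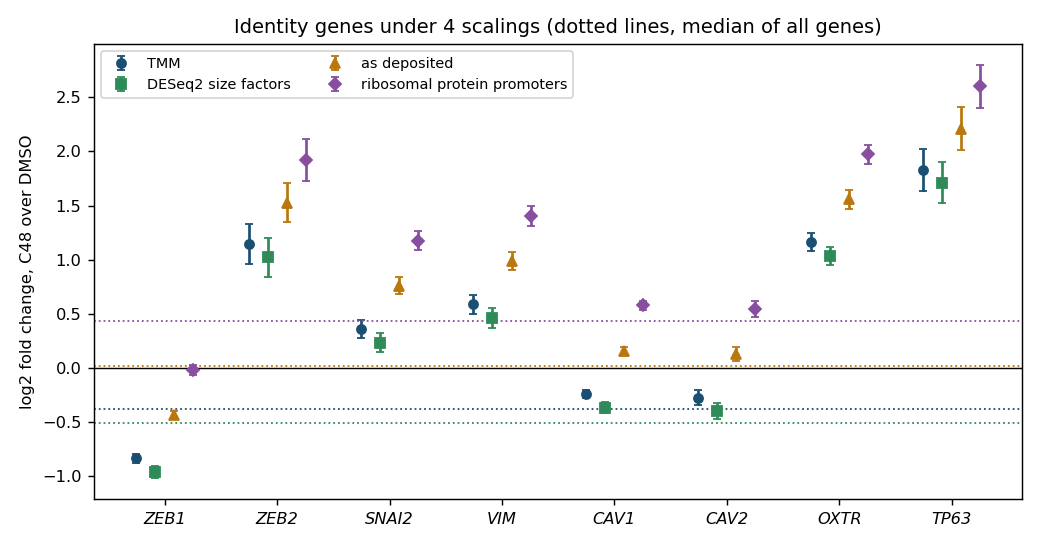
Log2 fold change (C48 over DMSO, y axis) of each identity gene within 5 kb, under 4 scalings of the libraries, with bars of 1 standard error and dotted lines at the median of all genes under the scaling of the same colour. CAV1 is at -0.24 with TMM, 0.16 as deposited and 0.58 on ribosomal protein promoters, while TP63 and OXTR stay above 0 and ZEB1 stays below the dotted line of its own scaling.

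ZEB1 was the only member among the transcription factors that fell with TMM. It had 618 and 646 scaled tags in the C48 libraries, against 1130 and 1128 in the DMSO libraries. All C48 values lay well below all DMSO values. The log2 fold change was -0.84 (SE 0.044, limma adjusted p = 9.8e-80), at percentile 11 of all genes. On ribosomal protein promoters the change was -0.017 and was not called (limma adjusted p = 0.73). Both of its peaks, which HOMER called in 1 and 3 of the 4 libraries, fell with TMM. The peak centred 121 bp before a ZEB1 start had 361 and 385 scaled tags in C48 cells, against 637 and 622 in DMSO cells (log2 fold change -0.76, SE 0.05). The peak 148 bp after the next start had 257 and 262 in C48 cells, against 492 and 506 in DMSO cells (-0.94, SE 0.06). Another peak, which the table names for the antisense gene ZEB1-AS1 but which lies within 5 kb of a ZEB1 start, had 121 and 117 in C48 cells and 128 and 119 in DMSO cells, and did not pass (-0.051, SE 0.086, limma adjusted p = 0.61). Set against the ZEB1 peaks of the same library, which needs no scaling, it stood at 0.196 and 0.181 in C48 cells and 0.113 and 0.105 in DMSO cells.

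ZEB2, the paralog of ZEB1, moved the other way from a far lower level. Its peak, centred 183 bp before the start, had 34.5 and 35.3 scaled tags in C48 cells, against 14.7 and 15.9 in DMSO cells. HOMER called this peak in none of the 4 libraries. Per kb of peak it had 101 and 104 scaled tags in C48 cells and 43.2 and 46.7 in DMSO cells, below the medians of all genes, which were 231 and 234 in C48 cells and 306 and 297 in DMSO cells. The log2 fold change of the gene was 1.14 (SE 0.18, limma adjusted p = 1.2e-09), at percentile 97.0 of all genes and 89.1 of the genes at 20 to 50 scaled tags. The ratio of ZEB1 to ZEB2 signal within a library was therefore lower after C48, at 17.9 and 18.3 in C48 cells and 76.9 and 71.1 in DMSO cells. Neighbouring peaks named for other genes rose as well. A peak named for ZEB2-AS1, in an intron, had 159 and 133 scaled tags in C48 cells and 113 and 106 in DMSO cells (0.41, SE 0.09, limma adjusted p = 7.8e-05), and one named for LOC105373656 had 32.1 and 36.7 in C48 cells and 16.3 and 14.1 in DMSO cells (1.13, SE 0.18, limma adjusted p = 3.3e-07). With all peaks within 5 kb of a protein-coding ZEB2 start summed by position, the change was 0.61 (SE 0.08).

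SNAI2, which encodes the repressor SLUG, rose by a smaller amount. It had 166 and 171 scaled tags in C48 cells, against 134 and 128 in DMSO cells (log2 fold change 0.36, SE 0.08, limma adjusted p = 1.8e-05). The libraries did not overlap, and the gene stood at percentile 84.8 of all genes. Its promoter peak, centred 204 bp before the start and called in all 4 libraries, had 153 and 152 in C48 cells and 126 and 121 in DMSO cells (0.30, limma adjusted p = 0.00094). With DESeq2 size factors that peak was not called (0.18, limma adjusted p = 0.055). A weak peak in intron 1, 817 bp after the start, had 13.5 and 18.7 in C48 cells and 8.39 and 7.4 in DMSO cells (0.93, SE 0.24, limma adjusted p = 7.1e-04 over all consensus peaks). The intron peak thus stood at 0.0887 and 0.123 of the promoter peak in C48 libraries, against 0.0667 and 0.0613 in DMSO libraries.

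TP63 had the largest gain of the 8 genes, and its signal within 5 kb came mainly from an intron peak downstream of the internal start. Summed within 5 kb, it had 39.7 and 40.7 scaled tags in C48 cells, against 7.87 and 14.1 in DMSO cells. The C48 libraries lay close together and the DMSO libraries apart. The log2 fold change was 1.83 (SE 0.19, limma adjusted p = 8.6e-21), at percentile 99.5 of all genes and 98.5 of those at 20 to 50 scaled tags. It was 1.45 without DMSO replicate 1 and 2.22 without DMSO replicate 2, and remained called both times. Nearly all of this signal lay in 1 peak in an intron, centred 1215 bp after the internal start whose upstream sequence is shown above, with 38.8 and 40.7 in C48 cells and 7.21 and 13.8 in DMSO cells (1.89, SE 0.21, limma adjusted p = 3.9e-11), called by HOMER in all 4 libraries. The peak at the outer TP63 start, 210 bp before it, held 6 and 0 tags in C48 libraries and 5 and 2 in DMSO libraries and was not tested. With 3 tags taken as the floor, at 0.413 tags per 10 M in the C48 library without a tag, no difference was detectable there at this depth. Even after C48 the level of TP63, at 47.6 ± 0.834 scaled tags per kb (SD, n = 2), was the lowest of the 8 genes.

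**Figure D3:**
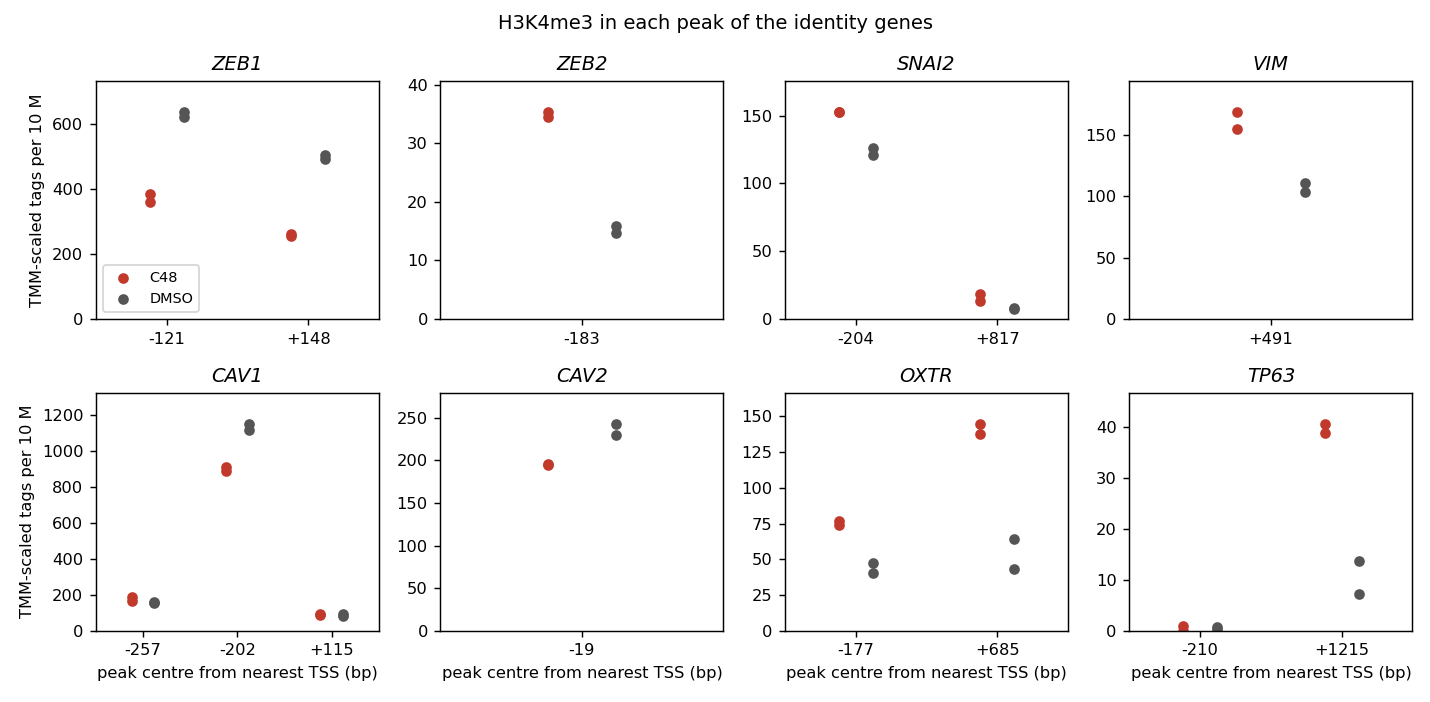
Scaled tags per 10 M (y axis, linear and separate for each gene) in each of the 14 peaks, at the distance of its centre from the nearest TSS (x axis, bp, categories not to scale), with C48 libraries in red on the left and DMSO libraries in grey on the right. The OXTR peak at +685 bp and the TP63 peak at +1215 bp show the widest separation, and the TP63 peak at -210 bp is near 0 in all libraries.

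VIM and OXTR are structural and receptor genes of this group, and both rose. VIM had 168 and 155 scaled tags in C48 cells, against 111 and 103 in DMSO cells, in a peak in intron 1 centred 491 bp after the start (log2 fold change 0.59, SE 0.09, limma adjusted p = 2.2e-11). HOMER called this peak in 2 C48 and 0 DMSO libraries, but the call record does not always follow the signal. The ZEB1 peak at -121 bp was called in 1 C48 and 0 DMSO libraries, although its signal was higher in DMSO cells. A much stronger peak beside it is named for the antisense gene VIM-AS1, with 543 and 563 in C48 cells and 578 and 565 in DMSO cells, and did not pass (-0.047, SE 0.048, limma adjusted p = 0.38). Summed by position with that peak, VIM was not called (0.075, SE 0.046, limma adjusted p = 0.12). The intron peak was 0.310 and 0.274 of the VIM-AS1 peak in C48 libraries, against 0.192 and 0.183 in DMSO libraries.

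OXTR had 222 and 212 scaled tags in C48 cells, against 111 and 83.7 in DMSO cells. Both C48 values were higher than both DMSO values (log2 fold change 1.16, SE 0.08, limma adjusted p = 1.8e-43), at percentile 97.1 of all genes and 98.6 of those at 100 to 300 scaled tags. The peak in an exon, 685 bp after the nearest start, had 145 and 138 in C48 cells and 64.1 and 43.0 in DMSO cells (1.41, SE 0.12). The promoter peak, 177 bp before the start, had 77 and 74.2 in C48 cells and 47.1 and 40.7 in DMSO cells (0.77, SE 0.12). The exon peak rose more: its ratio to the promoter peak was 1.88 and 1.86 in C48 libraries and 1.36 and 1.06 in DMSO libraries.

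With a limit of 0.5 kb between the core and the flank of a gene, the flank-to-core ratio could be tested for OXTR and SNAI2 and was higher for both. For OXTR the difference was 0.64 on the log2 scale (SE 0.14, limma adjusted p = 0.012) and for SNAI2 it was 0.59 (SE 0.17, limma adjusted p = 0.026). Of the 5609 genes tested in this way 72.2% were called higher, so a rise of this ratio was the common case. With the limit of 1 kb set for the comparison, no member had both a core and a flank at the minimum of 5.

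CAV1 and CAV2 lie side by side on chromosome 7, and both fell slightly with TMM. CAV1, the main caveolin, had 1190 and 1140 scaled tags in C48 cells, against 1356 and 1396 in DMSO cells (log2 fold change -0.24, SE 0.04, limma adjusted p = 2.9e-09). As deposited per 10 M tags it was called higher (0.16, limma adjusted p = 1.4e-05). Its main peak, 202 bp before a later CAV1 start, had 908 and 886 in C48 cells and 1113 and 1149 in DMSO cells (-0.33, SE 0.04). The upstream peaks lie at outer CAV1 starts and did not fall. The one 257 bp before such a start had 190 and 167 in C48 cells and 161 and 155 in DMSO cells (0.17, limma adjusted p = 0.043 over all consensus peaks). The one 115 bp after such a start had 92.8 and 87.5 in C48 cells and 82.2 and 92.0 in DMSO cells, which overlap (0.050, limma adjusted p = 0.66). The upstream peaks together stood at 0.311 and 0.288 of the main peak in C48 libraries and 0.218 and 0.215 in DMSO libraries.

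CAV2, its partner in caveolae, had 196 and 195 scaled tags in C48 cells, against 243 and 230 in DMSO cells, in 1 peak at its TSS (-0.27, SE 0.07, limma adjusted p = 0.00014). As deposited it was 0.13 and not called (limma adjusted p = 0.076). The ratio of CAV1 to CAV2 was 6.06 and 5.86 in C48 libraries and 5.58 and 6.07 in DMSO libraries, which overlap. Relative to genes at their own level, CAV1 stood at percentile 91.8 of genes over 1000 scaled tags and CAV2 at percentile 52.8 of those at 100 to 300.

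Peak by peak, 9 of the 14 member peaks were recorded by HOMER as called in at least 1 library, and all 9 were tested. Of these, 5 were higher and 4 lower in C48 cells (limma), where 32.3% of the 33772 peaks tested were higher and 39.2% lower. With all consensus peaks of sufficient signal tested, called or not, 13 member peaks could be tested, 8 being higher and 4 lower, where 33.4% of peaks were higher and 37% lower.

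The change of a gene went with its level. The median log2 fold change of all genes with TMM was 0.42 at 5 to 20 scaled tags, 0.34 at 20 to 50, 0.044 at 50 to 100, -0.31 at 100 to 300, -0.57 at 300 to 1000 and -0.69 above 1000. ZEB2 and TP63, at 20 to 50, exceeded the median of their range, as did VIM, SNAI2, OXTR and, narrowly, CAV2 at 100 to 300 and CAV1 above 1000. ZEB1, at 300 to 1000, stood at percentile 16.3 of its range. What part of the members' changes goes with their level was not tested.

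**Figure D4:**
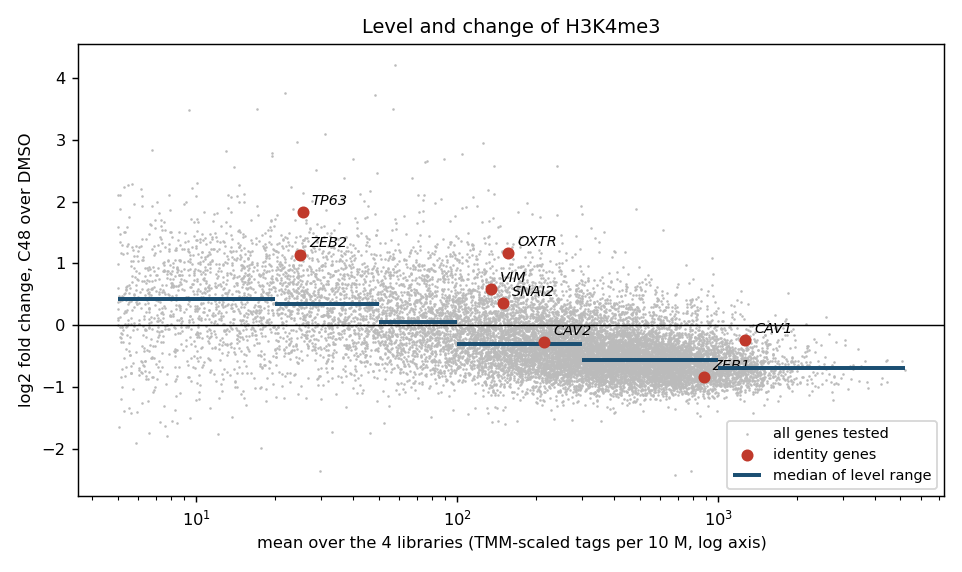
Log2 fold change (C48 over DMSO, TMM scaling, y axis) against the mean scaled tags of the 4 libraries (x axis, log) for all 15602 genes tested (grey), with the identity genes in red and blue lines at the median of each level range. The blue line drops from 0.42 at 5 to 20 scaled tags to -0.69 above 1000, and 7 of the 8 red points lie above the blue line of their range, with ZEB1 below.

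Levels were compared between genes per kb of peak. In C48 cells the order of scaled tags per kb was CAV1 (644 ± 19.5, SD, n = 2), ZEB1 (553 ± 17.6), VIM (353 ± 21.5), CAV2 (316 ± 1.76), OXTR (155 ± 5.05), SNAI2 (120 ± 2.51), ZEB2 (103 ± 1.67) and TP63. In DMSO cells the order was ZEB1 (987 ± 0.866), CAV1 (761 ± 15.4), CAV2 (383 ± 15), VIM (234 ± 11.6), SNAI2 (93.1 ± 3.0), OXTR (69.9 ± 13.9), ZEB2 (44.9 ± 2.47) and TP63 (13 ± 5.22). ZEB1 and CAV1, VIM and CAV2, and OXTR and SNAI2 changed places. No neighbours in either order overlapped between libraries. ZEB1, CAV1, VIM and CAV2 lay above the median of all genes in C48 cells, and ZEB1, CAV1 and CAV2 in DMSO cells.

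Other genes of the same programmes moved in both directions, and their counts also depended on the scaling. For all genes tested, 18.9% were called higher and 64% lower with TMM, and 39.5% and 37.2% as deposited. Of 9 other EMT transcription factors tested, 3 were higher and 4 lower (median -0.13, against -0.38 for all genes), and as deposited 6 were higher and 1 lower. TWIST1, a mesodermal helix-loop-helix factor, rose (0.40, limma adjusted p = 3.0e-11), while TCF3, which encodes the E2A factors, fell (-1.08, limma adjusted p = 2.7e-105). Of 21 other mesenchymal genes tested, 11 were higher and 5 lower (median 0.22), and as deposited 17 were higher and 2 lower. MMP2, a matrix metalloproteinase, had 43.9 and 40.0 scaled tags in C48 cells and 12.9 and 19.6 in DMSO cells (1.34, limma adjusted p = 4.9e-14). FN1, which encodes fibronectin, fell with TMM (-0.59) and so did CCN1, a matricellular protein gene (-0.58), and both rose on ribosomal protein promoters.

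Of 19 other basal and myoepithelial genes tested, 4 were higher and 9 lower (median -0.092), and as deposited 13 were higher and 1 lower. Over all genes 18.9% were higher and 64% lower with TMM (median -0.38), and 39.5% and 37.2% as deposited. EGFR, a receptor of basal cells, had 334 and 328 in C48 cells and 572 and 541 in DMSO cells (-0.75, limma adjusted p = 2.3e-43). CDH3, which encodes P-cadherin, was at -0.45 and was called lower with TMM but not as deposited (-0.052, limma adjusted p = 0.21). Among 3 caveola genes tested, CAVIN1, which encodes a coat protein of caveolae, rose (0.32, limma adjusted p = 0.00016, but 0.19 and adjusted p = 0.075 with the DESeq2 Wald test), PACSIN2, a membrane-bending protein gene, fell (-0.70), and EHD2, an ATPase of the caveolar neck, was not called with TMM (log2 fold change 0.0024) and was called higher as deposited (0.40, limma adjusted p = 0.0026).

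Of 17 epithelial genes known as targets of ZEB or SNAI repression, 1 was higher and 11 lower (median -0.27), and as deposited 9 were higher and 4 lower. Over all genes 18.9% were higher and 64% lower with TMM (median -0.38), and 39.5% and 37.2% as deposited. The TMM share of lower genes in this epithelial list was thus near that of all genes. The higher gene was RAB25, a GTPase of epithelial trafficking, with 396 and 432 in C48 cells and 175 and 176 in DMSO cells (1.23, limma adjusted p = 1.9e-81). EPCAM, an epithelial adhesion gene, was at -0.63 and ESRP1, an epithelial splicing factor, at -0.52. Of 16 luminal markers tested, 3 were higher and 13 lower (median -0.48), and as deposited 5 were higher and 7 lower. The TMM share of higher markers was near that of all genes (18.9%). Of all genes 64% were lower, a smaller share than the 13 of 16 markers, and the median of all genes was -0.38. Whether the list differs from all genes was not tested. TFF3, a secreted trefoil peptide gene, had 128 and 134 in C48 cells and 22.2 and 18.2 in DMSO cells (2.65), while KRT8 (-1.09) and XBP1, a secretory stress factor (-0.90), fell with TMM, XBP1 not being called on ribosomal protein promoters (-0.078, limma adjusted p = 0.18). Some lists name 1 gene by an old and a new symbol, and a symbol without a peak counts as not tested.

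**Figure D5:**
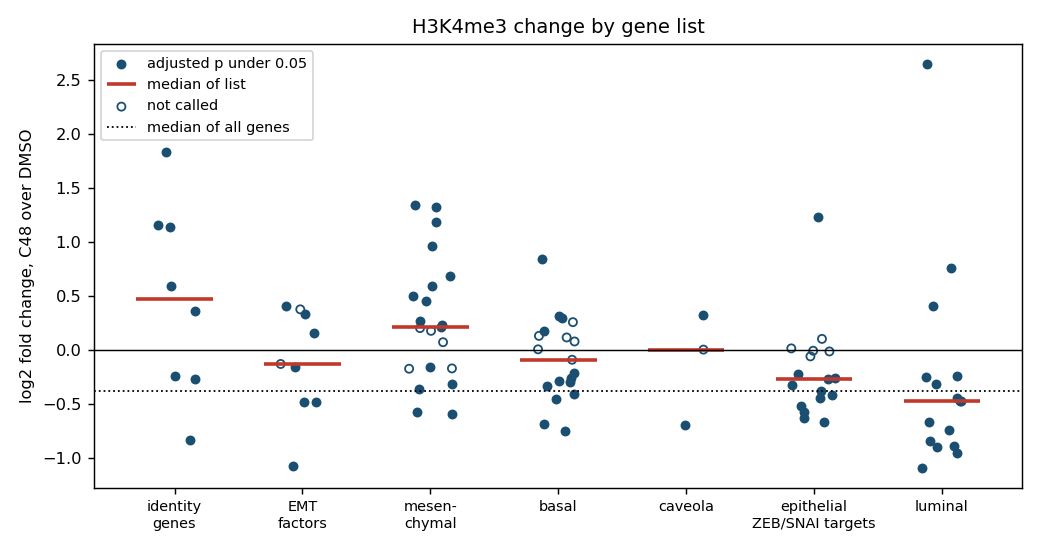
Log2 fold change (C48 over DMSO, TMM scaling, y axis) of each gene tested in the identity genes and in 6 other lists (x axis), filled where the limma adjusted p is under 0.05, with red lines at list medians and a dotted line at the median of all genes, -0.38. List medians run from 0.47 for the identity genes to -0.48 for luminal markers.

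Markers of other cell types were checked in the same libraries. Of 10 blood and immune markers, 8 had no peak within 5 kb and CD14 alone was tested, with 43.6 and 40.6 scaled tags in C48 cells and 20.3 and 18 in DMSO cells (1.10, limma adjusted p = 1.7e-10). The list summed to 40.9 to 43.9 in C48 libraries and 20.3 to 23.2 in DMSO libraries. Of 10 fibroblast and endothelial markers, 4 were tested, with 2 higher and 1 lower with TMM and 4 higher and 0 lower as deposited. Over all genes 18.9% were higher and 64% lower with TMM, and 39.5% and 37.2% as deposited. The fibroblast and endothelial list summed to 1352 and 1367 in C48 libraries and 1361 and 1400 in DMSO libraries. The endothelial PECAM1 and VWF and the fibroblast COL3A1 had no peak. COL1A2, a collagen gene, was at 0.96, PDGFRA, a growth factor receptor gene of fibroblasts, at 0.50 and COL1A1 at -0.26 with TMM. The part of such markers in the members' changes was not tested.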

How the data were processed

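H3K4me3 CUT&Tag libraries of HCC1428 cells (2 C48, 2 DMSO) were analysed. Reads were aligned to hg38 by the authors (Bowtie2 2.3.4.1), who then called peaks per library with HOMER (version not given in the sources used here), merged them with libraries of other cell lines and assigned each peak to the nearest TSS. The deposited signal is the number of tags per peak per 10 M aligned tags, without spike-in scaling. The study's spike-in factors were not used here. All values (100%) were whole multiples of 1 tag within 0.1 tags.

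Values were scaled with TMM (edgeR 4.0.16), and log2(value + 1) was fitted with limma-trend of limma 3.58.1 in R 4.3.3, C48 over DMSO, with Benjamini-Hochberg adjustment at 0.05. Peaks called in at least 1 library, and genes as the sum of their peaks within 5 kb, needed a mean of at least 5. In the gene fit the spread was estimated from all genes (infinite prior degrees of freedom), which makes its p-values very small. The fits were repeated with other scalings, pseudocounts, filters and windows, with edgeR and DESeq2 1.42.0 on the recovered tags, and without each replicate. The limma and edgeR fits of peaks were tried on simulated counts without a genome-wide shift. Gene sums, flank ratios, DESeq2 and the choice of scaling were not tried in this way. Members, gene lists and tests were chosen with earlier results of these data known. All members and, of each other list, up to 3 genes with the smallest p were named, and 2 genes that this rule names are not reported here. A deposited table of repeat subfamilies was not used. Promoter sequences came from RefSeq (GRCh38.p14) and hg38. Python 3.11.15, pandas 2.3.3, numpy 2.4.6 and matplotlib 3.10.9 were used.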

Additional observations from a re-analysis of the deposited data

How the results depend on the processing

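Leaving out each replicate in turn left the calls of member genes at 5 higher and 3 lower and of member peaks at 5 and 4. Without 1 replicate, log2 fold changes ran from 0.96 to 1.36 for OXTR and from 1.45 to 2.22 for TP63. A replicate block gave the same calls (5 genes higher, 3 lower). The libraries share only a replicate number, with a correlation of -0.029 between same-numbered deviations over 33772 peaks. A pseudocount of 5, no filter on the mean and the edgeR quasi-likelihood test also gave these counts. With DESeq2 size factors and with the DESeq2 Wald test, the SNAI2 promoter peak was the only member peak whose call changed, to not called. The counts of member genes stayed the same. Over all genes, DESeq2 size factors gave 2293 higher and 10792 lower. With 4 genes higher and 3 lower each, the 1 kb window tested 7 genes (not TP63), called peaks alone tested 7 (not ZEB2), and peaks by position tested 8 (VIM not called). With ribosomal protein promoters as the scale no member gene (0) was lower, where 5.64% of all genes were. As deposited 1 member gene was lower, where 37.2% of all genes were. Testing all consensus peaks, an alternative chosen after seeing the data, as was summing peaks by position, gave 8 higher member peaks. Flank-to-core ratios of members were higher for 2 genes with the limit of 0.5 kb. Without the filter on the mean 1 gene, TP63, was tested and was higher, where 51.3% of 4334 genes were higher. Its core is the peak at the outer start, with 6 and 0 tags in C48 libraries and 5 and 2 in DMSO libraries. Its flank is the intron peak after the internal start, so this ratio does not describe the surroundings of 1 start.

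Directions reversed with ribosomal protein promoters for CAV1 (0.58), CAV2 and its peak (0.54), the ZEB1 peak at -121 bp (0.063), the CAV1 peak at -202 bp (0.48), CCN1 (0.24), FN1 (0.23), EGFR (0.069), CDH3 (0.37), PACSIN2 (0.12), ESRP1 (0.30), EPCAM (0.18) and COL1A1 (0.56). As deposited they reversed for CAV1 (0.16), CAV2 and its peak (0.13), the CAV1 peak at -202 bp (0.066) and COL1A1 (0.14). EHD2, near 0, was at -0.12 with DESeq2 size factors, -0.11 with the DESeq2 Wald test, and between -0.19 and 0.20 when a replicate was left out, but was called higher as deposited (0.40) and on ribosomal protein promoters (0.81). Over all genes 2943 were higher and 9982 lower with TMM, against 6171 and 5810 as deposited and 11943 and 882 on ribosomal protein promoters. These scalings multiply all peaks of a library by 1 factor, so they shift all genes together. TP63 in DMSO cells rests on 60 and 80 tags, and its DMSO libraries differed at 7.87 and 14.1 scaled tags.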

Other observations

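Some peaks named for member genes lay beyond 5 kb of a TSS. A peak 11956 bp after the CAV2 start, between CAV2 and CAV1, had 142 and 151 scaled tags in C48 cells and 71.9 and 90.6 in DMSO cells (log2 fold change 0.85, SE 0.10, limma adjusted p = 8.8e-11), while the CAV2 peak at the TSS itself was at -0.27. A peak 57194 bp before CAV2 had 58.9 and 69.2 in C48 cells and 45.8 and 44.2 in DMSO cells (0.49, SE 0.12, limma adjusted p = 4.6e-04).

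The peak 7269 bp from KRT14 was weak, with 4.76 and 2.40 scaled tags in C48 cells and 8.14 and 6.53 in DMSO cells. HOMER called it in 0 C48 and 2 DMSO libraries, so it was tested only through the group where it is high. Its log2 fold change was -0.91 (SE 0.35) with TMM, and its TMM test is not used here. It was not called as deposited (-0.58, limma adjusted p = 0.12) or on ribosomal protein promoters (-0.23, limma adjusted p = 0.54). A peak 51064 bp from SNAI2 had 20.7 and 19.4 in C48 cells and 13.8 and 18.9 in DMSO cells and was not called (0.30, limma adjusted p = 0.18). Among the TP63 peaks beyond 5 kb, the peak tested with TMM lay 137976 bp before a TP63 start and was not called. It had 6.24 and 4.56 in C48 cells and 3.67 and 5.99 in DMSO cells (0.15, limma adjusted p = 0.70). Of the 19 peaks named for TP63, one in an intron 16496 bp before the internal start had 5.95 and 9.0 in C48 cells and 1.70 and 1.94 in DMSO cells. It fell short of the minimum mean of 5 with TMM. As deposited it had 6.85 and 10.3 in C48 cells and 1.47 and 1.70 in DMSO cells, and passed that minimum through its C48 values. HOMER called it in 2 C48 and 0 DMSO libraries. It was thus selected by the group where it is high, and its test is not used here.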
